A study of Mus musculus with 8 samples.

Results

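Neuroblasts of the mouse hippocampus were examined as 321 single cells out of 12954 hippocampal cells that passed the filters. A cell passed with at least 500 detected genes and under 15% of its UMIs (unique molecular identifiers, 1 per captured RNA molecule) from mitochondrial genes. It counted as a neuroblast when at least 3 of Igfbpl1, Neurod1, Elavl2, Stmn2, Dcx, Tac2, Eomes and Calb2 had at least 1 UMI each and when Mog, Aqp4 and Cldn5, markers of oligodendrocytes, astrocytes and endothelium, had 0 UMIs in sum. The members were thus selected on the measured values of these 11 genes, and the levels of those genes are given below as a description without a test. The study asked how cells of the hippocampus differ after regulatory T cells are removed.

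Both groups received diphtheria toxin. The first, DTRneg, was Foxp3-DTR- littermates, and the second, DTRpos, was Foxp3-DTR+ mice, in which the Foxp3 promoter puts the toxin receptor on regulatory T cells. Each group was 1 library from 2 pooled mice of unstated age, from cells sorted as CD45- and Thy1-. The gate left out immune cells and neurons that carry Thy1, so only neuroblasts without surface Thy1 were sampled. Foxp3 had 0 UMIs in both libraries, and Ptprc, which encodes CD45, had 0 UMIs in the neuroblasts of both. The depletion of regulatory T cells could therefore not be read from these cells. With 1 library a group, no difference between DTRpos and DTRneg has a test, and the 95% intervals given for them cover counting error only.

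The dentate gyrus of the hippocampus keeps a stem cell niche in which radial glia-like cells give rise to dividing intermediate progenitors, then to neuroblasts, and finally to granule neurons. Eomes (Tbr2) is a transcription factor of the intermediate progenitors. Stmn2 encodes a tubulin-binding protein of growing neurites and is switched on as a cell becomes a neuron. Igfbpl1, Neurod1 and Dcx span the steps between them: Neurod1 is a neurogenic transcription factor, and doublecortin, the product of Dcx, binds the microtubules of migrating neuroblasts.

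The DTRneg library held 53484704 UMIs in 8220 barcodes and the DTRpos library 35814655 UMIs in 6548. Neuroblasts had medians of 6907 and 5748 UMIs and 2619 and 2455 genes in DTRneg and DTRpos. The 2 libraries shared 18 barcodes, and no neuroblast carried one of them. Scrublet, a doublet caller, marked 3 DTRneg and 1 DTRpos neuroblasts, which were kept. A further 40 and 22 cells had 3 or more of the 8 genes but also a UMI of Mog, Aqp4 or Cldn5, and 19 and 13 of these had a single such UMI. Just inside the threshold lay 26 DTRneg and 23 DTRpos cells with exactly 3 of the 8 genes, and just outside it 95 and 109 cells with 2. The first set held Sox11, a transcription factor of immature neurons, at 718 and 656 CPM (UMIs of the gene per 1000000 UMIs) and the OPC gene Olig1 at 868 and 729 CPM. In the cells just outside, Sox11 was at 172 and 289 CPM and Olig1 at 2377 and 2135 CPM, so the border was shared with oligodendrocyte precursor cells (OPCs).

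The name held for most of the cells, by genes that the rule did not use. Of the 753 genes at 200 CPM or more in the neuroblasts of both libraries, 90 were at least 5 times as high there as in all other filtered cells of the same library. These 90 include the rule genes Tac2, Neurod1, Igfbpl1, Eomes, Stmn2, Elavl2 and Dcx, which chose the cells and say nothing on the name. By the size of that ratio, the leading genes outside the rule were Srrm4, a splicing regulator of neurons (242 and 269 CPM against 1.74 and 1.75 in other cells), the surface glycoprotein Cd24a (301 and 284 against 2.83 and 1.69) and Mfap4 (334 and 441 against 4.12 and 3.50). They were followed by Bcl11a, Sox11, Cplx2, Cdk6, Ccnd2, Nrep, Elavl4, Zbtb18, Sox4, Nsg2, Tubb3, Septin3, Pcp4, Jpt1 and Dbn1. Sox11 stood at 2734 and 2382 CPM against 37.3 and 39.9 in the other cells, and was detected in 96.7% and 94.3% of neuroblasts. These genes were read from the same cells that the rule picked and describe them without a test. Prox1, the transcription factor that specifies dentate granule neurons, was at 257 CPM in DTRneg and 267 CPM in DTRpos neuroblasts. It set them apart little, with 144 and 159 CPM in other cells and 180 and 210 CPM in mature oligodendrocytes. Markers of mature neurons were mixed. Rbfox3, which encodes the nuclear antigen NeuN, was at 173 and 189 CPM in 59.1% and 58.6% of neuroblasts, against 1.29 and 1.46 CPM in other cells, and Snap25 was found in 27.1% and 20.7%. Slc17a7, the vesicular glutamate transporter, was at 4.82 and 5.91 CPM, and Camk2a at 1.61 and 3.55 CPM. Thy1 was at 14.5 and 13.0 CPM, in cells sorted against its protein. Of the 17 genes of the GABAergic interneuron and olfactory neuroblast list, 5 (Gad1, Lhx6, Sst, Pvalb and Nkx2-1) had 0 UMIs in both libraries. Others were present, such as Dlx2 with 5 and 16 UMIs. At least 3 genes of that list were present in 3 DTRneg and 4 DTRpos members, none of which lacked both Eomes and Stmn2.

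Some members carried markers that go against the name. Those with OPC markers lay mostly where neither Eomes nor Stmn2 was seen. At least 3 of the 5 OPC markers Pdgfra, Cspg4, Olig1, Olig2 and C1ql1 were present in 8 DTRneg and 10 DTRpos neuroblasts, and 15 of these 18 lay among the 34 members that lacked a UMI of both Eomes and Stmn2. In that group the summed OPC marker level was 4642 CPM in DTRneg and 6915 CPM in DTRpos, against 35.4 and 44.3 CPM in cells with both genes. The 8 genes of the rule are not equally private to neuroblasts. Dcx was detected in 28.6% and 27.2% of OPCs, Calb2 in 20.7% and 22.95% and Elavl2 in 8.99% and 9.25%, where Igfbpl1, Neurod1, Eomes, Stmn2 and Tac2 were found in 0.531% or less. OPCs were at medians of 5232 and 4334 UMIs. Stmn2 was also detected in 4.17% and 7.34% of endothelial cells.

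A second small set lay at the Stmn2 end. Cajal-Retzius cells are early-born neurons at the edge of the dentate gyrus that secrete reelin. At least 3 of 8 of their markers were present in 2 DTRneg and 2 DTRpos members, all of which had Stmn2 and no Eomes. These 4 cells held every UMI of Reln, Ndnf, Lhx1, Lhx5 and Ebf3 in the Stmn2-only cells, for example 21 and 46 UMIs of Ndnf and 7 and 14 of Reln. They had 0 UMIs of Dcx, Prox1 and Tac2 in both libraries and a single UMI of Neurod1, while 27 of the other 31 and 26 of the other 29 Stmn2-only cells had Neurod1. Counting all the lineages examined (OPC, Cajal-Retzius, GABAergic or olfactory, mural, fibroblast, choroid or ependymal), 14 DTRneg and 16 DTRpos members carried 3 or more markers of another lineage, and the main counts below were repeated without them.

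**Figure D1:**
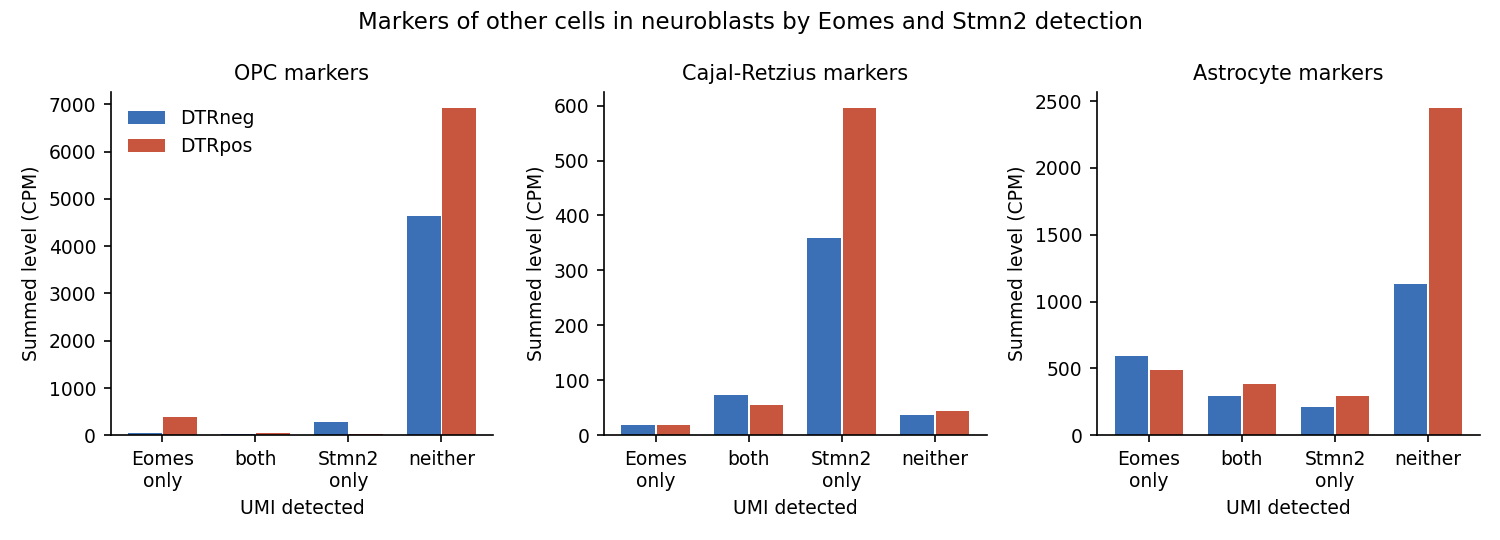
Summed level (CPM) of marker lists of other cell types in neuroblasts, by whether a cell had a UMI of Eomes, of Stmn2, of both or of neither, in DTRneg (blue) and DTRpos (red). OPC markers are concentrated in the cells with neither gene (4642 and 6915 CPM) and Cajal-Retzius markers in the Stmn2-only cells (358 and 595 CPM).

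Neuroblasts were ordered by the 2 end genes. In DTRneg, 60 cells had Eomes only, 69 both genes, 33 Stmn2 only and 19 neither. In DTRpos, the numbers were 46, 48, 31 and 15. Of the Eomes-positive cells, 53.5% in DTRneg (44.5 to 62.3) and 51.1% in DTRpos (40.5 to 61.5) also had a Stmn2 UMI. Depth moved with the groups: median UMIs were 7533 and 6782 in Eomes-only cells and 6204 and 4914 in Stmn2-only cells.

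The other genes of the rule followed several patterns over the 3 groups with Eomes, both or Stmn2. Neurod1 stood at 681 and 566 CPM in Eomes-only cells, 1327 and 1263 CPM in cells with both genes and 1120 and 1382 CPM in Stmn2-only cells of DTRneg and DTRpos. Calb2, which encodes the calcium-binding protein calretinin of immature granule neurons, went from 33.7 and 30.1 CPM to 275 and 303 CPM and then to 437 and 304 CPM. Of these 3 groups, both genes were lowest in the Eomes-only cells of each library. In cells with neither end gene, Neurod1 was lower still, at 253 and 379 CPM. Elavl2, an RNA-binding protein, was lowest in the Stmn2-only cells, with 796, 633 and 448 CPM over the 3 groups in DTRneg and 599, 657 and 410 CPM in DTRpos. Dcx was highest in the cells with both genes, at 542 and 480 CPM, against 322 and 292 CPM in Eomes-only and 342 and 443 CPM in Stmn2-only cells. Igfbpl1 was lowest in Eomes-only cells, with 2442, 3592 and 3035 CPM in DTRneg and 2454, 3227 and 3345 CPM in DTRpos. Tac2 went opposite ways in the libraries, with 259, 452 and 146 CPM in DTRneg and 412, 276 and 456 CPM in DTRpos.

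To describe all other genes along this axis, counts were summed over the Eomes-only and over the Stmn2-only cells of each library, and the 4 sums were tested with edgeR's quasi-likelihood test with the library as a block (Benjamini-Hochberg adjusted p under 0.05). The p-values measure the spread between these 2 libraries, which are also the 2 genotypes. Of 4516 genes tested, 174 rose from the Eomes-only to the Stmn2-only cells (3.85%) and 179 fell (3.96%). All 353 changed in the same direction in both libraries. The test favours genes that move alike in both, so this adds no separate support. The median log2 difference of all tested genes was -0.02. DESeq2 on the same sums called 44 genes, all among the 353, and without the members that carried 3 markers of another lineage edgeR called 407, of which 304 were among the 353.

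**Figure D2:**
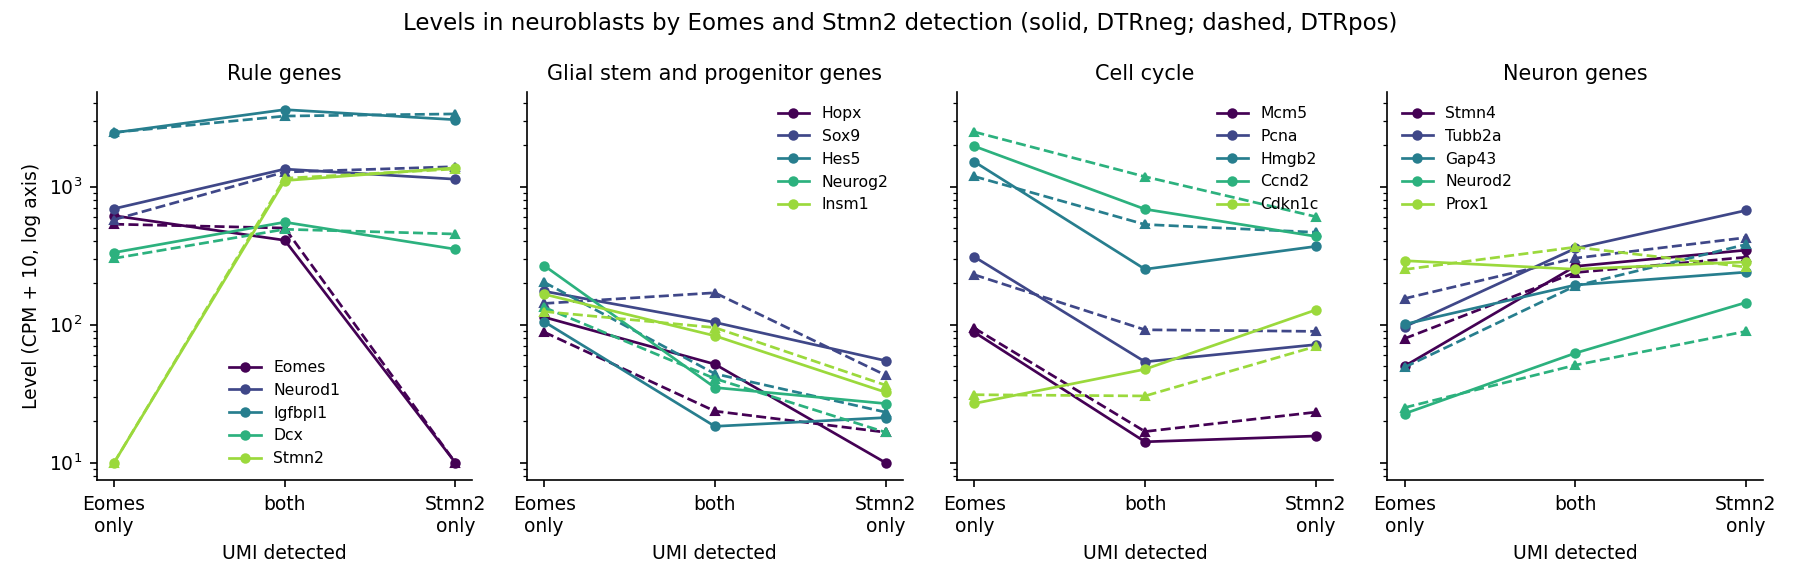
Level (CPM + 10, log axis) of 20 genes in neuroblasts with Eomes only, with both genes and with Stmn2 only; solid lines are DTRneg and dashed lines DTRpos. Glial stem, progenitor and cell-cycle genes other than Cdkn1c, and than Sox9 in DTRpos, are highest in Eomes-only cells, neuron genes other than Prox1 are lowest there, and Prox1 stays between 241 and 354 CPM.

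Genes of the radial glia-like stem cell were still present at the Eomes end and lower at the Stmn2 end. The 17 genes of their list summed to 2307 and 2066 CPM in Eomes-only cells, against 13670 and 12630 CPM in astrocytes. Of the 10 genes of that list that could be tested, 5 fell and 0 rose, with a median log2 difference of -1.25. Hopx, a marker of quiescent neural stem cells, was at 103 and 78.2 CPM in Eomes-only cells and at 0 and 6.61 CPM in Stmn2-only cells of DTRneg and DTRpos (log2 difference -4.69, SE 0.74, adjusted p 0.00184). Hes5, a target of Notch signalling in stem cells, went from 94.8 and 193 CPM to 11.2 and 13.2 CPM (-3.44, SE 0.48, adjusted p 0.00075). Neither gene's groups overlapped, but both were taken from the called genes, so this adds no separate support. Both were higher in astrocytes, Hopx at 925 and 654 CPM and Hes5 at 329 and 387 CPM. Hes5 was found in 10 Eomes-only cells of each library. The others that fell were the transcription factor Sox9 (-1.87), the intermediate filament Vim (-1.76) and Thrsp (-1.18), a regulator of fatty acid synthesis in neural stem cells. Sox2 differed by -0.31 (adjusted p 0.372) and was at 314 and 344 CPM in Stmn2-only cells. Gpd1, a glycerol metabolism enzyme, was among the genes with the largest falls (122 and 244 CPM to 5.6 and 6.61 CPM, log2 difference -4.74), as was Myo10, an unconventional myosin of cell protrusions (-3.31). DESeq2 kept Gpd1 (adjusted p 0.0139) but none of the 5 list genes (Hopx at 0.306, Hes5 at 0.0886) nor Myo10 (0.325).

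The genes of intermediate progenitors fell in part. Of the 11 tested, 5 fell and 1 rose, with a median of -0.93. Neurog2, the proneural factor that acts before Neurod1, went from 257 and 123 CPM to 16.8 and 6.61 CPM (-3.92, SE 0.44, adjusted p 0.000154). Insm1, a zinc-finger repressor of progenitor division (-2.43), Cdk6 (-1.52), Hes6 (-1.13) and Mfap4 (-0.93) also fell. Neurod4 went with them, from 120 and 51.1 CPM to 5.6 and 13.2 CPM (-3.17). The member that rose was Btg2, an antiproliferative gene of cells about to become neurons, at 234 and 187 CPM in the Eomes-only and 470 and 397 CPM in the Stmn2-only cells (1.09, SE 0.19, adjusted p 0.00363). Sox11 and Sox4, which ranked among the leading genes of the whole population, differed by 0.15 and 0.09 along the axis and did not pass (adjusted p 0.493 and 0.735). Of 5 Notch pathway genes tested, Notch1 (-2.53), Hes5 and Hes6 fell. Of these progenitor and Notch calls, DESeq2 kept Neurog2 (adjusted p 0.0112) alone.

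DNA replication genes were higher at the Eomes end, while most mitosis genes did not pass. Of 28 cell-cycle genes tested, 15 fell and 1 rose, with a median log2 difference of -1.26. Ccnd2, the D-type cyclin of neural progenitors, was at 1947 and 2475 CPM in Eomes-only cells and 426 and 595 CPM in Stmn2-only cells (-2.08, SE 0.13, adjusted p 2.29e-06). Mcm3, a subunit of the MCM helicase that opens DNA for replication, was at 82.2 and 90.2 CPM in Eomes-only cells and had 0 counts in the Stmn2-only cells of both libraries, which makes it at least 9.40-fold lower with a floor of 3 counts over both. Other replication genes that fell were Mcm5 (-3.05), Mcm6 (-2.21), Pcna (-1.85), Rrm1 (-2.26), Rrm2 (-2.71) and Lig1 (-3.04). Outside the list, Clspn (-4.63), Uhrf1 (-4.55), Pclaf (-3.59) and Hells (-3.31), which act at the replication fork or on newly made DNA, were among the 15 genes with the largest falls. Mki67 (-2.43), Smc4 (-1.30) and Pbk (-1.55) fell, but the mitosis genes Top2a, Birc5, Ube2c, Cenpf, Cenpa, Cenpe, Tpx2, Nusap1 and Cdc20 did not pass. Several of these went different ways in the 2 libraries: Top2a went from 331 to 28.0 CPM in DTRneg and from 181 to 185 CPM in DTRpos (adjusted p 0.134), and Nusap1 from 94.8 to 5.6 CPM in DTRneg and from 9.02 to 85.9 CPM in DTRpos (adjusted p 0.875). The member that rose was Cdkn1c, an inhibitor of cyclin-dependent kinases, from 16.9 and 21.1 CPM to 118 and 59.5 CPM (2.31, SE 0.46, adjusted p 0.00837). Of the 16 list genes called, DESeq2 kept Ccnd2, Hmgb2 and Mcm3 (adjusted p 0.0486), and it called none of Clspn, Uhrf1, Pclaf, Hells and Lig1 (adjusted p 0.0886 to 0.383).

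By cells, a Mki67 or Top2a UMI was found in 35.0% of Eomes-only cells in DTRneg (23.1 to 48.4) and 28.3% in DTRpos (16.0 to 43.5). In cells with both genes the share was 4.35% and 6.25%, and in Stmn2-only cells 9.09% and 9.68%. Mature oligodendrocytes, which do not divide, gave 4.07% and 5.61% at medians of 7601 and 6227 UMIs and astrocytes 0.120% and 0.109% at 4123 and 3374.5 UMIs. The shares in the later groups rest on 3 cells each in each library. Top2a itself was at 28.0 and 185 CPM in Stmn2-only cells, against 0.340 and 0.468 CPM in mature oligodendrocytes. With each cell thinned to 2000 UMIs, the Eomes-only shares were 25.9% and 23.9%.

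Promoters of some replication genes are printed here because these genes moved together along the axis. The sequences come from RefSeq windows on GRCm38.p6. In promoters of cell-cycle genes the CCAAT box is bound by NF-Y, the E2F site by E2F factors and the CHR element by the DREAM and MuvB complexes. Each run below is the 120 bases that end just before the start site, 5′ to 3′ on the gene's strand, with capitals for CCAAT, TTTCGCGC (E2F type), TTTGAA (CHR) and the E-box CAGATG, searched on both strands. The regions are Mcm3 chr1:20820313-20820432 (minus strand), Mcm5 chr8:75109389-75109508 (plus strand), Mcm6 chr1:128359706-128359825 (minus strand), Hmgb2 chr8:57511723-57511842 (plus strand), Mki67 chr7:135716380-135716499 (minus strand) and Neurod2 chr11:98329646-98329765 (minus strand).
Mcm3: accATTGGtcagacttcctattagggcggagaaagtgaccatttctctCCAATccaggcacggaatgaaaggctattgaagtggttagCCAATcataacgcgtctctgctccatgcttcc
Mcm5: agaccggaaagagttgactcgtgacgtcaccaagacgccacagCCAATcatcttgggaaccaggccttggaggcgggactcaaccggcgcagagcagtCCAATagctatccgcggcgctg
Mcm6: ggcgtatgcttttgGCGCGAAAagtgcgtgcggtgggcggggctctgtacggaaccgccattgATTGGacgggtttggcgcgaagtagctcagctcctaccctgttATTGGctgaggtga
Hmgb2: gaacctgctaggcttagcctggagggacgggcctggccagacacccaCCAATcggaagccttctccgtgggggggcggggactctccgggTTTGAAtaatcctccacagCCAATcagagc
Mki67: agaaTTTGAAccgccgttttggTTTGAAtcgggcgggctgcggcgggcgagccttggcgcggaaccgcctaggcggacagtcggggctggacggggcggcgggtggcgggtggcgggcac
Neurod2: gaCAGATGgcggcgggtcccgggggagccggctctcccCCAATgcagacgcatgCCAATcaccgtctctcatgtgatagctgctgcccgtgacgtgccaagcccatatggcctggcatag
The 3 Mcm promoters printed each hold at least 2 CCAAT boxes, Mcm6 adds the E2F-type motif, and Hmgb2 and Mki67 hold TTTGAA. The runs are a selection, and other cell-cycle genes that fell held as many or fewer marked motifs in their 120 bases. Rrm1 held 2 CCAAT boxes, Mcm7 2 in 1 window and 1 in the other, Pcna and Rrm2 1 each, and Cdk4 none of the motifs. Shares were counted over whole windows of 300 bases, 250 before to 50 after the start. CCAAT was in 10 of the 11 windows found for 10 of the 15 cell-cycle genes that fell. It was in 54.4% of 182 windows of all genes that fell (149 of 179 genes matched), 43.6% of 179 windows of genes that rose (131 of 174 matched), 39.0% of windows of all tested genes and 37.4% of all 32851 windows. TTTCGCGC was in 3.85% of windows of genes that fell, 1.12% of genes that rose, 0.900% of all tested genes and 0.323% of all windows. TTTGAA was in 18.1% and 12.3% of windows of genes that fell and rose, in 12.02% of those of all tested genes and in 17.9% of all windows. CAGATG, an E-box that factors such as NEUROD and NEUROG bind, was in 18.4% of windows of genes that rose, 10.4% of genes that fell, 10.2% of all tested genes and 17.2% of all windows. These matches describe letters in a window and not binding.

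The Stmn2 end was marked by the neuronal cytoskeleton. Of 37 tested genes of cytoskeleton and migration, 17 rose and 1 fell, with a median log2 difference of 0.81. Stmn4, of the same tubulin-binding family as Stmn2, was at 40.0 and 69.2 CPM in Eomes-only cells and at 336 and 298 CPM in Stmn2-only cells (2.63, SE 0.29, adjusted p 0.000133). Tubb2a went from 86.4 and 144 CPM to 661 and 417 CPM (2.32), and Tubb3, the tubulin by which young neurons are often stained, from 487 and 424 CPM to 1422 and 1507 CPM (1.72, SE 0.13, adjusted p 5.71e-06). The groups did not overlap for these 3 genes, which were taken from the called genes, so this adds no separate support. Gap43, a growth cone protein, went from 90.6 and 39.1 CPM to 230 and 370 CPM (2.15, SE 0.35, adjusted p 0.00209). Map1b (1.32), Rtn1 (1.27), Mapt (1.24) and Tuba1a (1.13) also rose. The exception was Tuba1b, a tubulin of dividing cells, which fell from 727 and 689 CPM to 302 and 436 CPM (-0.92). Some genes that rose were not particular to neuroblasts. In mature oligodendrocytes Stmn4 was at 1992 and 2162 CPM and Mapt at 1074 and 1198 CPM, and in OPCs Gap43 was at 305 and 333 CPM. Tubb3 was at 66.2 CPM or lower in OPCs, astrocytes, mature oligodendrocytes and endothelial cells. DESeq2 kept 7 of the 18 calls: Tubb3, Tubb2b, Tubb2a, Tuba1a, Rtn1, Stmn4 and Gap43. Gap43 did not pass with at least 4 rule genes required.

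Chl1, Ank3 and Ly6h were among the 15 largest rises. Chl1, an adhesion molecule of the L1 family, went from 16.9 and 27.1 CPM to 174 and 152 CPM (2.97, SE 0.36, adjusted p 0.00023). Ank3, whose product ankyrin-G anchors sodium channels at the axon initial segment, rose by 2.59 on the log2 scale, and Ly6h by 2.59. These genes were not particular to neuroblasts. In OPCs Chl1 was at 178 and 209 CPM and Ly6h at 540 and 623 CPM, and Ank3 was at 532 and 674 CPM in mature oligodendrocytes. Of 12 tested synapse and excitability genes, 3 rose and 0 fell: Scn3a, a sodium channel of immature neurons (4.01), Syt1, the calcium sensor of vesicle release (3.45), and Grin2b, an NMDA receptor subunit (1.87). Their levels stayed low, with Syt1 at 72.8 and 39.7 CPM and Scn3a at 72.8 and 52.9 CPM in Stmn2-only cells. The RNA-binding factors Celf4 (2.27) and Celf3 (1.35) rose while Elavl4 fell (615 and 499 CPM to 286 and 218 CPM, -1.10). Ndnf (0 counts in Eomes-only cells), Reln and Nhlh2 were called too. All Ndnf and Reln counts of the Stmn2-only sums came from the 4 Cajal-Retzius marker cells described above. Meis2 (2.29) had UMIs in 8 and 4 of the Stmn2-only cells and in 0 of those 4 cells. DESeq2 kept Chl1, Ank3, Ly6h and Meis2 (adjusted p 0.00115 to 0.0287) but not Celf4, Celf3, Elavl4, Grin2b, Ndnf or Nhlh2, and gave Scn3a, Syt1 and Reln no adjusted p.

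Transcription factors of the granule neuron lineage changed unevenly. Of 16 tested, 5 rose and 1, Neurod4, fell, with a median of 0.28. Neurod2, which acts after Neurod1, went from 12.6 and 15.04 CPM to 134 and 79.3 CPM (3.01, SE 0.44, adjusted p 0.00119), and Neurod6 (1.82), Lmo4 (1.63), Nfib (0.56) and Nfia (0.50) rose. Prox1 was at 280 and 241 CPM in Eomes-only and 274 and 251 CPM in Stmn2-only cells, a difference of 0.05 (SE 0.20, adjusted p 0.923), and the ends overlapped. Bcl11b had 0 and 1 UMIs in all neuroblasts of DTRneg and DTRpos. DESeq2 kept none of the 6 calls (Neurod2 at adjusted p 0.174, Nfib at 0.0552).

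**Figure D3:**
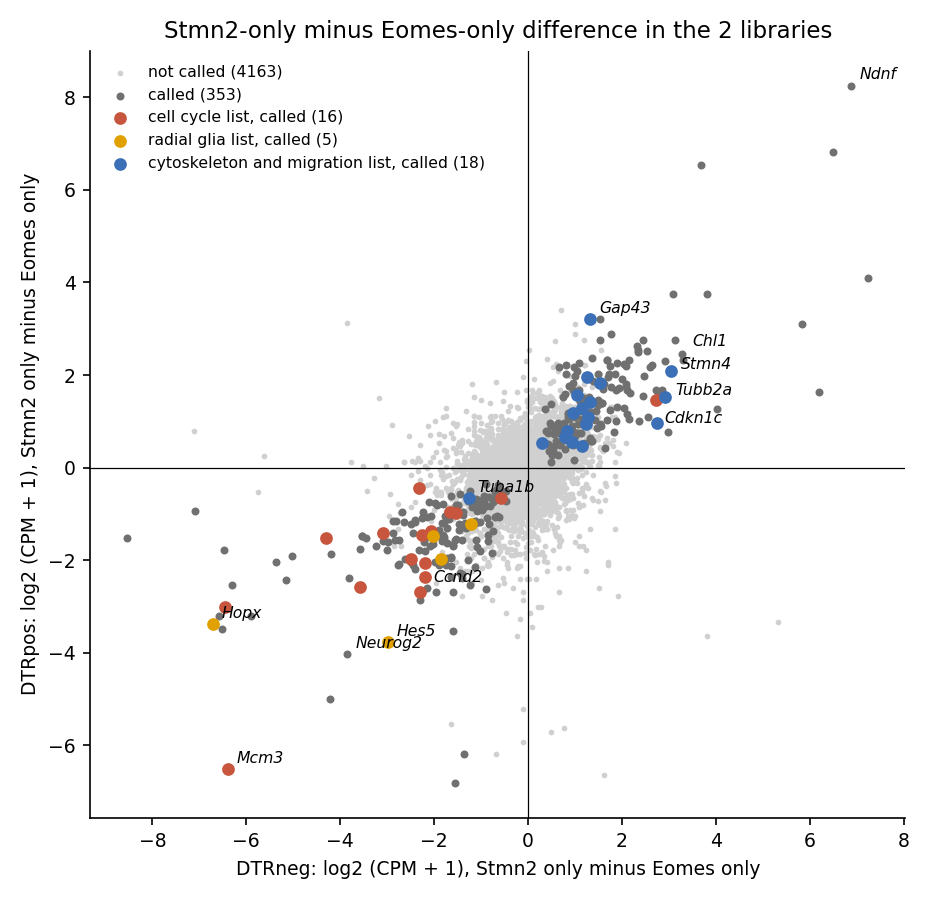
Log2 difference of CPM + 1 between Stmn2-only and Eomes-only neuroblasts in DTRneg (x axis) and DTRpos (y axis), 1 point per gene tested. All 353 called genes lie in the quadrants where both libraries have the same sign, which the test itself favours. Called genes of the cell cycle (red) and radial glia (yellow) lists lie mostly at the lower left and those of the cytoskeleton list (blue) mostly at the upper right, with the exceptions Cdkn1c and Tuba1b labelled.

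Immediate early genes, which both neuronal activity and tissue dissociation switch on, rose toward the Stmn2 end. Of 19 tested genes of the dissociation stress list, 9 rose and 0 fell, with a median of 0.55. Fos went from 990 and 1011 CPM to 2951 and 2671 CPM (1.54, SE 0.11, adjusted p 3.41e-06), Junb from 92.7 and 99.3 CPM to 375 and 377 CPM (2.01) and Ier2 from 348 and 421 CPM to 1512 and 945 CPM (1.73). DESeq2 kept 5 of the 9, including these 3. The part of dissociation in these differences was not tested. Nuclear-encoded respiratory chain genes were flat, with 1 of 33 called (Cycs, -0.78, lost in 6 of 9 alternatives) and a median of -0.0023. Apoptosis and survival genes had 0 of 11 called by edgeR.

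The share of neuroblasts was close in the 2 genotypes. They made up 2.55% of filtered cells in DTRneg (181 of 7105, 2.19 to 2.94) and 2.39% in DTRpos (140 of 5849, 2.02 to 2.82), a log2 ratio of -0.09 (-0.42 to 0.24). Against cells with no Mog UMI only, the shares were 6.11% and 4.80%, a log2 ratio of -0.35 (-0.68 to -0.02). Eomes-only cells were 33.1% of neuroblasts in DTRneg and 32.9% in DTRpos (log2 ratio -0.01, -0.60 to 0.57), and 24.7% and 28.5% with each cell thinned to 2000 UMIs. Tac2 was found in 24.9% (18.7 to 31.8) and 36.4% (28.5 to 45.0) of neuroblasts, intervals that overlap, at a level of 341 and 356 CPM. The levels of the other 7 genes of the rule differed by log2 ratios of -0.18 (Elavl2, -0.34 to -0.01) to 0.04 (Stmn2), and the interval excluded equality for Elavl2 alone.

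Expression in neuroblasts differed little between the libraries. Of 1869 genes at 100 CPM or more in at least 1 library, 10 lay past a 2-fold ratio with an interval that excluded equality (0.535%), 5 higher and 5 lower in DTRpos. The median log2 ratio was 0.03, and 90% of genes lay between -0.46 and 0.44. Without the members that carried 3 markers of another lineage, 7 genes lay past the fold, of which 5 were among the 10.

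**Figure D4:**
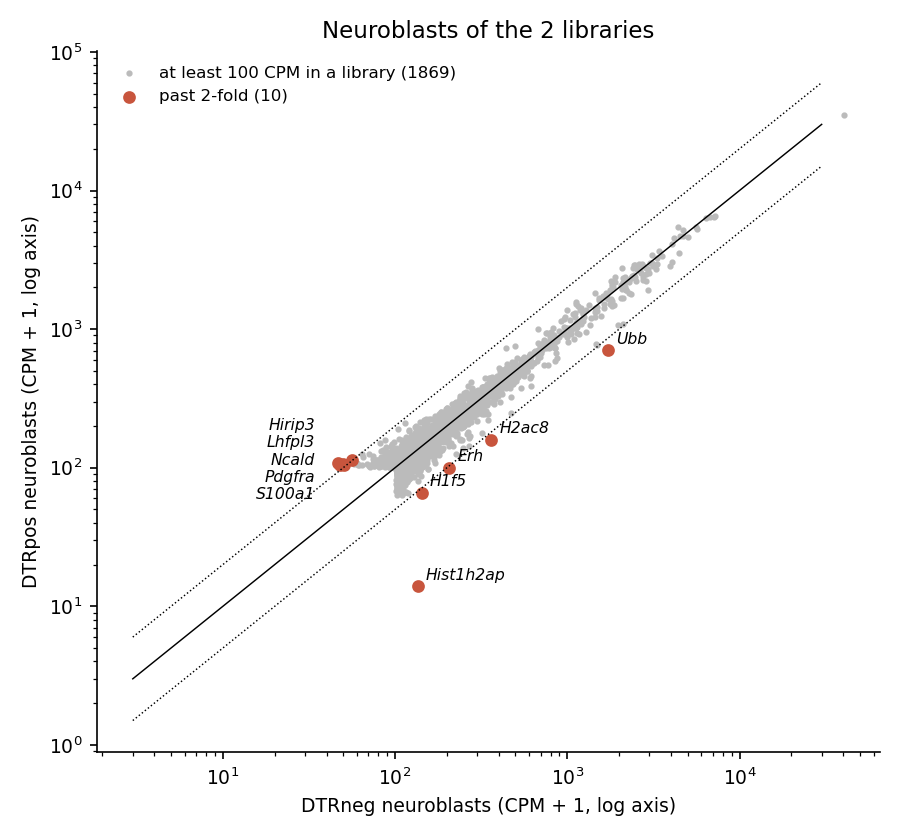
Level of 1869 genes in DTRneg (x axis) and DTRpos (y axis) neuroblasts (CPM + 1, log axes); the solid line marks equal levels, the dotted lines a 2-fold ratio, and red points the 10 genes past it. Most points lie within the dotted lines, and Hist1h2ap and Ubb lie farthest below them.

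Among the genes lower in DTRpos, Ubb, a polyubiquitin gene that stress induces, went from 1719 to 703 CPM (log2 ratio -1.29, -1.42 to -1.16). It was lower in DTRpos at each position along the axis, from 1294 to 544 CPM in Eomes-only and from 2145 to 1011 CPM in Stmn2-only cells. Erh, a small nuclear protein, went from 206 to 99.3 CPM (-1.05), and was at -0.99, short of the fold, without the members that carried markers of another lineage. Both were lower in the other cell types of the same libraries as well: the Ubb ratio was -1.02 in OPCs, -1.10 in astrocytes, -1.15 in mature oligodendrocytes and -1.12 in endothelial cells, and that of Erh -1.03, -1.08, -1.15 and -1.67. The remaining 3 were histone genes: Hist1h2ap (134 to 13.0 CPM, -3.37), H2ac8 (360 to 158 CPM, -1.19) and H1f5 (142 to 65.0 CPM, -1.12). Histone genes of S phase have near-identical copies, and counting could split their reads, so these values are uncertain. In the Stmn2-only cells the H2ac8 ratio had the other sign (0.54), and the H1f5 ratio was -1.78 without members that carried markers of another lineage. Hist1h2ap was found in 18 DTRneg and 6 DTRpos neuroblasts and H1f5 in 19 and 14. The Hist1h2ap ratio was -2.09 in OPCs and -2.90 in mature oligodendrocytes.

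Among the genes higher in DTRpos, Pdgfra, the receptor that defines OPCs, went from 49.8 to 103 CPM (1.04, 0.56 to 1.54) and Lhfpl3 from 55.5 to 113 CPM (1.03). Pdgfra was found in 9 and 11 neuroblasts and Lhfpl3 in 8 and 11. Without the 18 members that carried 3 OPC markers, neither reached 100 CPM, nor did Ncald, a calcium sensor (46.6 to 103 CPM, 1.14), or S100a1 (49.0 to 105 CPM, 1.10). Pdgfra is itself 1 of the 5 markers that picked those 18 cells, so its drop was partly fixed by the choice. Hirip3, a histone chaperone, was past the fold with and without those cells (45.8 to 108 CPM, 1.23, and 1.27 without them), and was found in 32 DTRneg and 39 DTRpos neuroblasts. It lay close to the limit of 100 CPM. It did not reach that limit with at least 4 rule genes, after thinning or with cells weighted equally. In Eomes-only cells taken alone its ratio was 0.70, short of the fold. Its ratio was 0.00 in OPCs, 0.49 in astrocytes (-0.14 to 1.12) and 0.24 in mature oligodendrocytes (0.03 to 0.44).

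**Figure D5:**
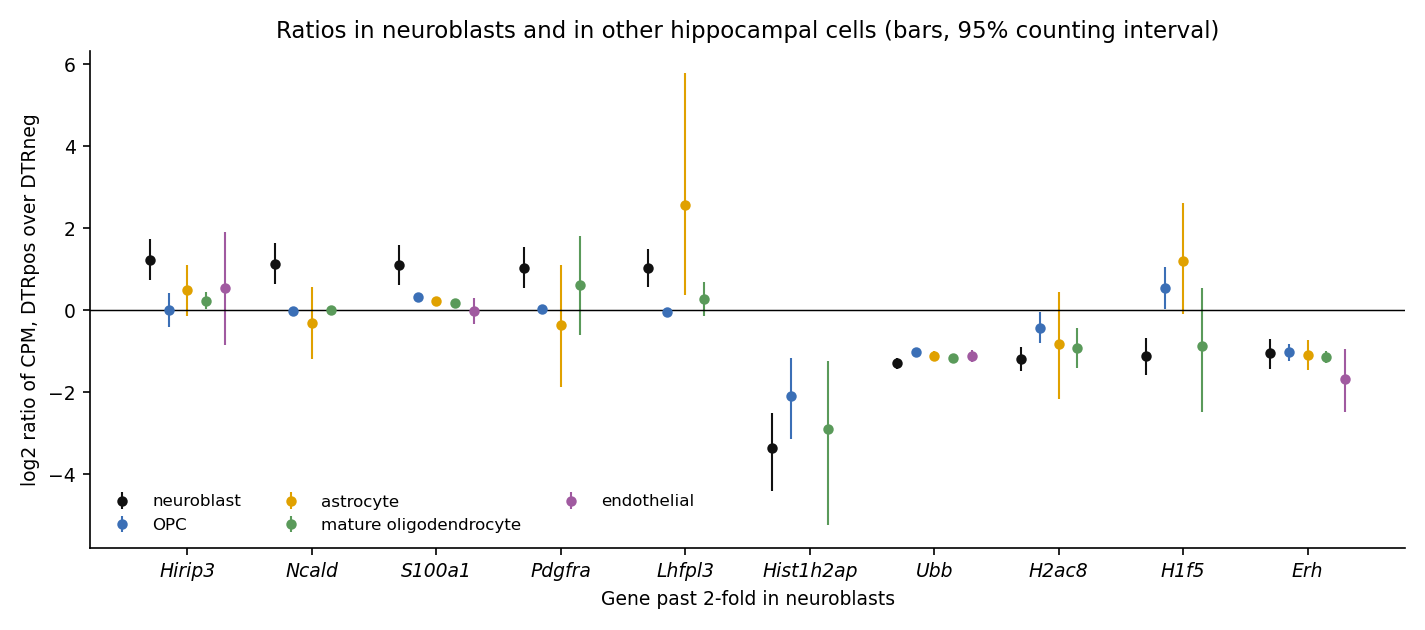
Log2 ratio of CPM, DTRpos over DTRneg, of the 10 genes past 2-fold in neuroblasts, in neuroblasts and in 4 other cell types of the same libraries; bars are 95% counting intervals, and ratios on fewer than 10 counts or with 0 in a library are left out. Ubb and Erh lie below 0 in every type shown, while Ncald, Pdgfra and Lhfpl3 lie near 0 in OPCs (-0.02, 0.04 and -0.03). S100a1 lies above 0 in OPCs (0.31).

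Lineage genes at 100 CPM or more in a library differed by less than 2-fold. Lhx2, a homeobox factor of the hippocampal lineage, went from 617 to 388 CPM (-0.67, -0.86 to -0.48), Neurog2 from 110 to 65.0 CPM (-0.76, -1.24 to -0.30), Dpysl2 from 345 to 220 CPM (-0.65, -0.91 to -0.40) and Nfia from 1290 to 956 CPM (-0.43, -0.56 to -0.31). Lhx2 was also lower in DTRpos astrocytes (228.5 to 157.8 CPM) and OPCs (21.3 to 14.0 CPM), but not in endothelial cells (10.1 to 16.2 CPM). Dpysl2 and Nfia were lower in DTRpos in OPCs, astrocytes, mature oligodendrocytes and endothelial cells alike, with Dpysl2 at 704 and 520 CPM in mature oligodendrocytes. Ccnd2 was higher in DTRpos neuroblasts, at 1122 and 1516 CPM (0.43, 0.32 to 0.54), but a single DTRpos cell held 78 of its 1283 UMIs. It was also higher in DTRpos OPCs (74.15 to 94.86 CPM) and astrocytes (76.66 to 101.5 CPM). Below 100 CPM in neuroblasts, the radial glia genes Hes1 (31 and 5 counts, -2.08, -3.80 to -0.70) and Id3 (39 and 12 counts, -1.15, -2.21 to -0.18) were past 2-fold. Of the DTRneg counts, 30 of 31 for Hes1 and 32 of 39 for Id3 lay in the 19 cells with neither Eomes nor Stmn2. Both genes were also lower in DTRpos in OPCs, astrocytes and endothelial cells (Hes1 107 to 65.6, 243 to 139 and 752 to 409 CPM). Ntrk2, the receptor for brain-derived neurotrophic factor, was at 64.3 and 118 CPM in neuroblasts (0.88, 0.44 to 1.32). Of the 27 cytoskeleton and migration genes at 100 CPM, the interval excluded equality for 8 lower and 1 higher in DTRpos, with a median log2 ratio of -0.08, against 233 lower and 273 higher of all 1869 genes. Of the 11 cell-cycle genes at 100 CPM, it did so for Ccnd2 alone. Below that level it did so for Cdk1 (43 and 9 counts, -1.70), Birc5 (88 and 30, -0.997), Pbk (94 and 41, -0.64) and Tyms (91 and 39, -0.67), all lower in DTRpos, and the whole list summed to 4772 and 4948 CPM (0.05, -0.01 to 0.11).

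Genes that interferon-gamma induces were at similar levels in neuroblasts of both genotypes. The 29 genes of the list summed to 505 CPM in DTRneg and 488 CPM in DTRpos (log2 ratio -0.05, -0.23 to 0.13). All other filtered cells had 420 and 492 CPM, astrocytes 511 and 488, mature oligodendrocytes 170 and 182, OPCs 680 and 689 and endothelial cells 6265 and 8757. Cxcl9, Cxcl10, Gbp2, Gbp4, Tap1 and Nlrc5 had 0 UMIs in the neuroblasts of both libraries. The type I interferon list summed to 151 and 207 CPM (0.45, 0.15 to 0.76) on UMIs in 81 and 73 cells, and the interval of 1 of its 23 genes, Ifi27, excluded equality. None of the 23 reached 100 CPM, where the interval excluded equality for 506 of 1869 genes. The list sum was higher in DTRpos elsewhere too, at 489 and 547 CPM in all other filtered cells. OPCs had 360 and 533, astrocytes 264 and 299, mature oligodendrocytes 273 and 292 and endothelial cells 6380 and 8348. Apoptosis and survival genes summed to 1254 and 1240 CPM (-0.02, -0.13 to 0.10).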

How the data were processed

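Hippocampal cells were measured by 10x Genomics 3' single-cell RNA sequencing (v2 kit, per the labels' protocols) in 1 DTRneg and 1 DTRpos library. The deposited matrices hold whole-number UMI counts that were not normalized, and the file headers name Cell Ranger 6.1.0. The submitters' processing notes name mm10 and Seurat, and the annotation release is not given in the sources used here. Of 55487 gene IDs, 55227 matched GENCODE M21, and IDs that share a symbol were summed.

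The members and gene lists were chosen with earlier results of these data known. Counts were summed over cells and divided by the total UMIs (CPM). The axis was tested with edgeR 4.0.16 (TMM, filterByExpr, library as block, the 8 rule genes left out after scaling), which was tested on simulated data; DESeq2 1.42.0 was an alternative. Both sums of a library come from the same mice, which is why the library was the block. Named along the axis were the 15 highest and 15 lowest called genes with the same direction in both libraries and a mean log2 CPM of 6 or more. Named between genotypes were the genes past 2-fold at 100 CPM, against other cells the leading genes at 200 CPM, and throughout members of fixed lists. Ratios between libraries have exact 95% conditional intervals, and shares Clopper-Pearson intervals. Other cell types needed 3 of 5 markers. Scrublet ran in Scanpy 1.11.5. Meningeal libraries were not used here.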

Additional observations from a re-analysis of the deposited data

Results flagged for a closer look

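H1f5, a linker histone gene, was lower in DTRpos neuroblasts (log2 ratio -1.12, -1.59 to -0.68; -1.78 without members that carried markers of another lineage and -2.46 with at least 4 rule genes) and higher in DTRpos OPCs (0.55, 0.03 to 1.07). The result stood out because the 2 cell types moved in opposite directions. The difference was not tested, since each genotype was 1 library, and the counts were 176 and 55 in neuroblasts and 54 and 82 in OPCs.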

How the results depend on the processing

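The number of genes called along the axis (353) was 250 with no replicate block (both sums of a library share mice), 438 with RLE size factors, 453 with no filter on low counts (171 rose, 282 fell) and 383 without cells that had 3 OPC markers. It moved by over 1.5 times to 44 with DESeq2 (227 at an unadjusted p under 0.05) and to 112 after thinning to 2000 UMIs (1534 genes tested). Without Scrublet doublets it was 537 and with at least 4 rule genes 136, also past 1.5 times. The causes were not tested. Thinning also regrouped the cells by the UMIs left. Eomes-only cells went from 60 and 46 to 43 and 39 in DTRneg and DTRpos, and Stmn2-only cells from 33 and 31 to 57 and 43. No named axis gene reversed in any alternative fit. Each library alone could show no reversal, since the same direction in both libraries was required for naming. In DESeq2, 18 of the 30 lost the call (all but Chl1, Stmn4, Ank3, Ly6h, Tubb2a, Meis2, Gap43, Junb, Rab3a, Mcm3, Gpd1 and Neurog2), and Gap43 did with at least 4 rule genes. The 10 genes past 2-fold between genotypes were 44 at 50 CPM, 3 at 200 CPM and 37 after thinning, and 7 to 10 in the other settings that keep the 4 groups together; within a group, on fewer UMIs, they were 36 (Eomes only), 46 (both), 87 (Stmn2 only) and 326 (neither); of the 10, H2ac8 had the other sign in the Stmn2-only cells taken alone (0.54) and none did in the other settings where it could be measured. The log2 ratio of the neuroblast share ranged from -0.35 (of cells with no Mog UMI, the 1 setting whose interval excluded 0) to 0.13 (at least 2 rule genes), and that of the Eomes-only share from -0.04 to 0.20. Leaving out cells with 3 OPC markers, or 3 markers of another lineage, was chosen after seeing the data. Depth limits the Stmn2-only sums of the axis most (178576 UMIs in DTRneg and 151278 in DTRpos). Leaving out a library leaves no test between genotypes.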

Other observations

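Vtn, a gene of mural cells, had 123 UMIs in DTRneg and 1 in DTRpos neuroblasts, and a single DTRneg cell held 54 of the 123. The olfactory and interneuron factor Dlx1 had 8 UMIs in 6 DTRneg neuroblasts and 33 UMIs in 8 DTRpos neuroblasts. Ttr, the main transcript of choroid plexus, had 107 UMIs in 79 DTRneg and 23 UMIs in 21 DTRpos neuroblasts, never more than 3 in a cell, and a log2 ratio of -1.66 (-2.38 to -1.002). It was also lower in DTRpos in OPCs (-2.84), astrocytes (-4.29), mature oligodendrocytes (-4.13) and endothelial cells (-6.55).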
